A study of Zea mays with 12 samples.

Results

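Ribosome profiling compares how much of an mRNA is present with how much of it is occupied by ribosomes. Ribosome-protected fragments (RPFs, or footprints) are the pieces of mRNA that a ribosome shields from RNase, and the ratio of RPFs to RNA is a measure of translation efficiency. Transcripts can carry few ribosomes when initiation on the main reading frame is inefficient, when upstream reading frames capture ribosomes, when the mRNA is kept in the nucleus or in cytoplasmic granules, or when the annotated reading frame is not translated at all.

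The transcripts described here are the 200 ribosome-poor genes of maize seedling roots that had received 0 hr of tunicamycin (TM). They were chosen from 8603 genes that had at least 20 CPM (counts of a gene per 1000000 counts of the library) of RNA in both 0 hr RNAseq libraries, out of 39498 genes in the count table. For each gene the RPF CPM was divided by the RNA CPM of the same lysate, the higher of the 2 ratios at 0 hr was taken as its score, and the 200 genes with the lowest scores became the members. The remaining 8403 genes with the same RNA minimum are called the other genes. Because the 0 hr libraries chose the members, every value at 0 hr and every comparison with 0 hr is given as a description. The main tests used only the 6 and 12 hr libraries. Fits that also included the 0 hr libraries were run as alternatives, for the same tests at 6 and 12 hr.

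All roots came from inbred B73 seedlings exposed for 0, 6 or 12 hr to 5 µg/ml TM dissolved in DMSO. The sample records and the study's methods give different seedling ages, so no age is stated. TM inhibits N-glycosylation, which causes proteins to misfold in the endoplasmic reticulum and sets off the unfolded protein response. Every time point had 2 biological replicates, and from each of the 6 lysates 1 ribo-seq and 1 RNAseq library were made. Mock-treated roots were not analysed here, so TM and time in culture cannot be told apart. RNAseq libraries held 2019128 to 9861654 counts and ribo-seq libraries 1667094 to 12328304 counts, with the shallowest ribo-seq library at 6 hr (replicate 1) and the deepest at 12 hr (replicate 2). The files and the annotation used here do not pair these gene identifiers with names or sequences, so no gene roles and no sequences are given, and the labelled tissue was not checked against marker genes. In a root sample, fewer cells of a type and less RNA per cell cannot be told apart.

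At the edge of the choice the values were continuous. The last genes inside were Zm00001d035512 with a score of 0.2744 and Zm00001d023724 with a score of 0.2749, which is the highest score of any member and is called the threshold below. The first genes outside were Zm00001d018883 with a score of 0.2756 and Zm00001d031061 with a score of 0.2762. The next 200 genes beyond the threshold had a median ratio of 0.303 and 0.300 in the 0 hr lysates, 0.339 and 0.306 after 6 hr, and 0.368 and 0.338 after 12 hr, replicate 1 before replicate 2.

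The ribosome-poor genes stayed ribosome-poor after TM treatment. Their median ratio of RPF to RNA was 0.180 and 0.160 in the 0 hr lysates, 0.191 and 0.165 after 6 hr, and 0.178 and 0.177 after 12 hr. The other genes had medians of 1.06 and 1.02 at 0 hr, 1.00 and 1.03 after 6 hr, and 1.03 and 1.08 after 12 hr. As means of the duplicates, the members' median was 0.170 ± 0.0141 at 0 hr, 0.178 ± 0.0184 after 6 hr and 0.177 ± 0.000707 after 12 hr (SD, n = 2 lysates), against 1.04 ± 0.0283, 1.02 ± 0.0212 and 1.06 ± 0.0354 for the other genes. No member reached a ratio of 1 in any lysate. The highest member ratio was 0.689 and 0.495 in the 6 hr lysates and 0.758 and 0.841 in the 12 hr lysates, and all 200 members lay below the other genes' median in each of the 6 lysates.

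**Figure D1:**
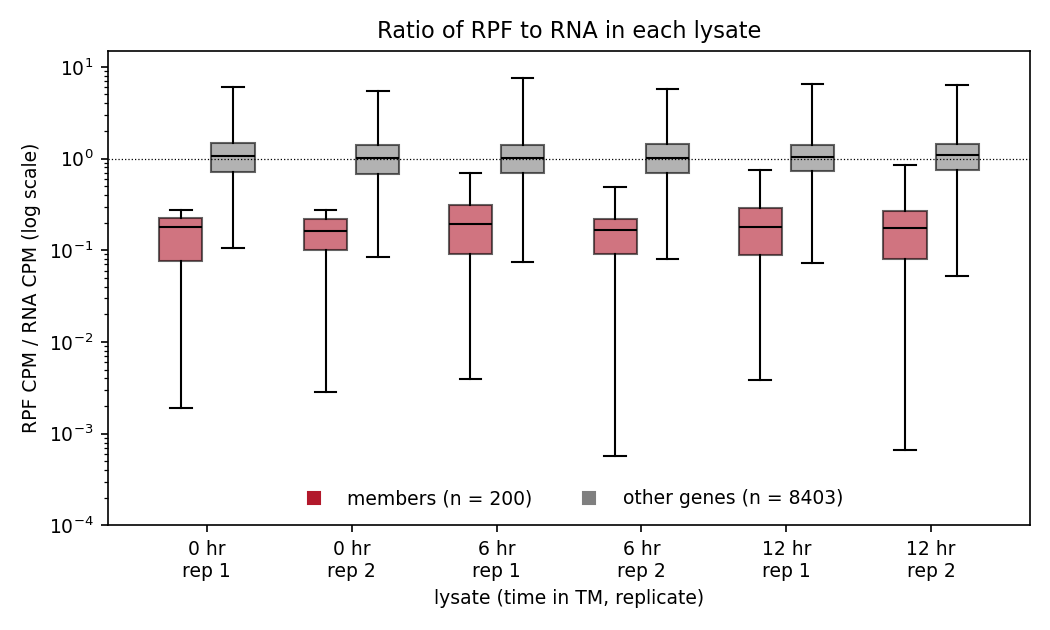
Ratio of RPF CPM to RNA CPM (log scale) in each of the 6 lysates, for the 200 members (red) and the 8403 other genes (gray). Boxes span the quartiles with the median as a line, whiskers reach the lowest and highest gene, and the dotted line marks a ratio of 1; the member medians of 0.160 to 0.191 sit well under the other genes' medians of 1.00 to 1.08 in every lysate.

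Part of the group lay above the threshold in lysates outside the choice. Both 0 hr ratios of a member had to be at or below it, so the counts that follow are only a description. At or below a ratio of 0.2749 there were 134 and 174 of the 200 members in the 6 hr lysates and 144 and 150 in the 12 hr lysates, while 2.14% and 1.75% of the other genes were there at 6 hr and 1.45% and 1.19% at 12 hr. In all 4 later lysates 107 members remained at or below the threshold, against 28 of the other genes (0.333%). A further reading at a ratio of 0.5 gave 181 members below it in all 4 later lysates, against 4.47% of the other genes. Among the 19 members that exceeded 0.5 in at least 1 later lysate, 3 did so in both 12 hr lysates and 0 in both 6 hr lysates. Members that were above the threshold in both duplicates numbered 17 at 6 hr and 36 at 12 hr, and 13 were above it in all 4 later lysates.

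The difference between RPFs and RNA was tested at 6 and 12 hr over the 8 libraries of those times, with edgeR's quasi-likelihood test, the lysate as a block and total count scaling. RPFs were lower than RNA, relative to library totals, for all but 1 of the 200 members at 6 hr and for all but 1 at 12 hr, and higher for 0 at either time (Benjamini-Hochberg adjusted p under 0.05). Over all 24221 genes tested, 21.4% were called lower and 11.2% higher at 6 hr, and 20.5% lower and 12% higher at 12 hr. Among the 8603 genes with the RNA minimum, which include the members, 23.8% were called lower at 6 hr and 21% at 12 hr. The members' median log2 difference of RPF over RNA was -2.48 at 6 hr and -2.51 at 12 hr, and the middle of the group ran from -3.37 to -2.06 at 6 hr and from -3.61 to -1.88 at 12 hr (quartiles). The other genes had a median of 0.01 at 6 hr and 0.08 at 12 hr. More than 4-fold fewer RPFs than RNA were fitted for 157 members and 70 other genes at 6 hr, and for 139 members and 66 other genes at 12 hr.

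Each exception to these calls was a single gene with few counts, and both were singled out after their values were seen. Actin scaling, used below as an alternative, sets a gene's ratio relative to that of actin rather than to library totals. It moved the median log2 difference of all genes tested from -0.28 to -0.71 at 6 hr and from -0.22 to -0.82 at 12 hr. Zm00001d039016, at rank 156, had ratios of 0.161 and 0.242 at 0 hr, 0.686 and 0.495 after 6 hr, and 0.588 and 0.315 after 12 hr. Its ratio was higher in all 4 later lysates than in both 0 hr lysates, but low 0 hr ratios were part of the choice, so this is only a description. The fitted log2 difference of RPF over RNA was -0.81 (SE 0.33, edgeR adjusted p = 0.0614) at 6 hr and -1.26 (SE 0.32, adjusted p = 0.00454) at 12 hr. With actin scaling it was called at 6 hr too (-1.23, adjusted p = 0.00642), and without 12 hr replicate 2 it was not called at 12 hr (-0.78, adjusted p = 0.352). Zm00001d038682, at rank 66, had ratios of 0.163 and 0.157 at 0 hr, 0.483 and 0.412 after 6 hr, and 0.539 and 0.841 after 12 hr, which is the highest ratio of any member in any lysate. It rested on 10 to 50 RPF counts in a later library, and its RNA was 21.5 and 20.1 CPM at 0 hr, 13.0 and 12.4 CPM after 6 hr, and 12.4 and 4.87 CPM after 12 hr. Its fitted log2 difference of RPF over RNA was -1.21 (SE 0.42, edgeR adjusted p = 0.0301) at 6 hr and -0.58 (SE 0.41, adjusted p = 0.299) at 12 hr. The 6 hr call was lost with DESeq2, with no replicate block and without 6 hr replicate 1, 6 hr replicate 2 or 12 hr replicate 1 (adjusted p = 0.051 to 0.203), and with actin scaling the gene was called at 12 hr as well (-1.16, adjusted p = 0.0264).

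**Figure D2:**
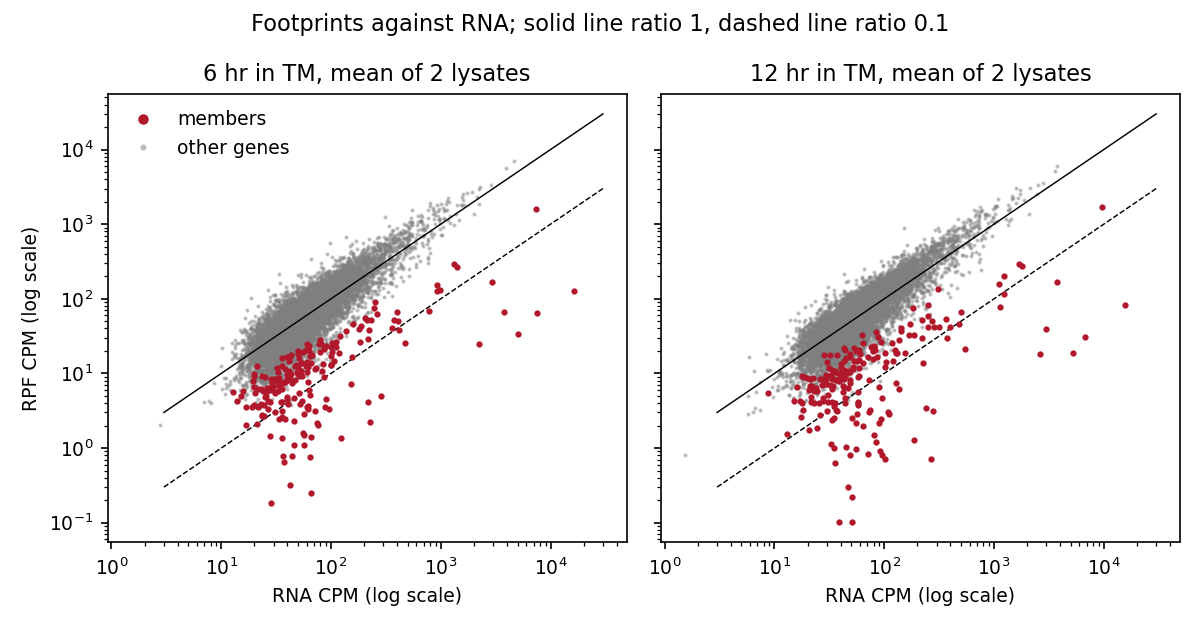
RPF CPM against RNA CPM (both log scale, mean of 2 lysates) at 6 hr (left) and 12 hr (right) for the 200 members (red) and the 8403 other genes (gray). The solid line is a ratio of 1 and the dashed line a ratio of 0.1; the members extend from the low edge of the gray cloud to far under the dashed line, and the member farthest right is Zm00001d003278.

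The gene with the lowest score was also the one with the most RNA. Zm00001d003278 had 51109 and 86554 RNAseq counts at 0 hr, 168438 and 63020 after 6 hr, and 98983 and 80887 after 12 hr, which made it the most abundant RNA with a Zm00001d identifier in all 6 RNAseq libraries. Its ribo-seq libraries held only 280 and 398 counts at 0 hr, 353 and 337 after 6 hr, and 450 and 205 after 12 hr. The ratios were thus 0.00339 and 0.00417 at 0 hr, 0.0124 and 0.00284 after 6 hr, and 0.0104 and 0.000995 after 12 hr, with the duplicates of each later time far apart. RPFs were lower than RNA by a log2 difference of -7.40 (SE 0.56, edgeR adjusted p = 1.33e-09) at 6 hr and -8.24 (SE 0.59, adjusted p = 3.74e-10) at 12 hr.

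Zm00001d038244, with the second lowest score, had the same form. It had 15087 and 21698 RNAseq counts at 0 hr, 55316 and 17900 after 6 hr, and 43945 and 20128 after 12 hr, and 82 and 139, 92 and 88, and 96 and 79 RPF counts at the same times. The ratios were 0.00337 and 0.00583 at 0 hr, 0.00989 and 0.00262 after 6 hr, and 0.00499 and 0.00155 after 12 hr. Its log2 difference of RPF over RNA was -7.64 (SE 0.37, edgeR adjusted p = 9.88e-13) at 6 hr and -8.49 (SE 0.38, adjusted p = 1.18e-13) at 12 hr.

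The members at the threshold kept low ratios as well. Zm00001d035512 had ratios of 0.273 and 0.170 after 6 hr and of 0.153 and 0.199 after 12 hr, and Zm00001d023724 had 0.0657 and 0.181 after 6 hr and 0.205 and 0.209 after 12 hr. All 8 of these values were at or below the threshold. For Zm00001d035512 the log2 difference of RPF over RNA was -2.25 (SE 0.20, edgeR adjusted p = 1.44e-08) at 6 hr and -2.50 (SE 0.19, adjusted p = 1.21e-09) at 12 hr. For Zm00001d023724 it was -2.89 (SE 0.33, edgeR adjusted p = 9.8e-07) at 6 hr and -2.28 (SE 0.30, adjusted p = 4.7e-06) at 12 hr.

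**Figure D3:**
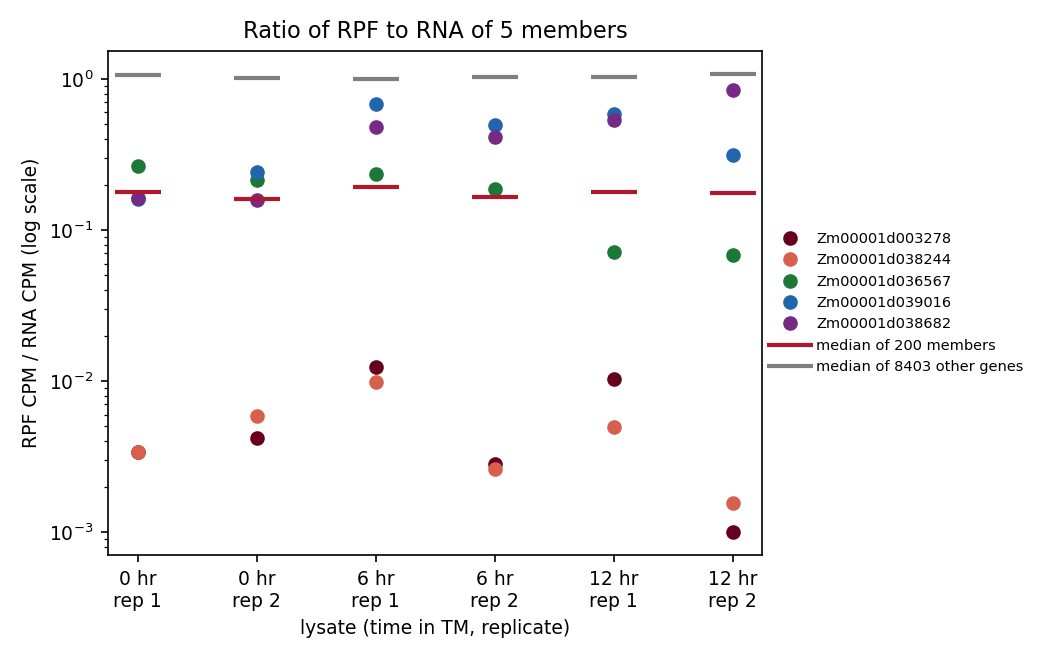
Ratio of RPF CPM to RNA CPM (log scale) of 5 members in each of the 6 lysates, 1 point per lysate, with short lines for the median of the 200 members (red) and of the 8403 other genes (gray). Zm00001d003278 and Zm00001d038244 stay at or below 0.0124 throughout, Zm00001d039016 and Zm00001d038682 lie above the member median at 6 and 12 hr, and Zm00001d036567 drops at 12 hr.

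A handful of members held much of the group's RNA counts. The 200 genes took 8.29% and 6.04% of RNAseq counts at 0 hr, 6.85% and 6.29% after 6 hr, and 6.80% and 7.24% after 12 hr. In the ribo-seq libraries they took 0.697% and 0.422% of counts at 0 hr, 0.674% and 0.429% after 6 hr, and 0.597% and 0.550% after 12 hr. The 4 most abundant members alone made up 3.49% to 4.84% of a library's RNAseq counts. Of the 10 most abundant RNAs with Zm00001d identifiers, 6 or 7 were members in every RNAseq library, and of the top 50, 9 to 13 were. RNA of at least 1000 CPM was found for 9 to 13 members in a library, against 0.369% to 0.440% of the other genes. These are counts per gene without correction for length.

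Most members were of ordinary abundance. Their median RNA was 63.9 and 46.3 CPM at 0 hr, 48.6 and 53.3 CPM after 6 hr, and 45.5 and 59.0 CPM after 12 hr, while the other genes had medians of 50.8 to 52.5 CPM. The medians of the groups therefore lay close together for RNA and far apart for RPFs. The members' median RPF level was 8.71 and 6.94 CPM at 0 hr, 9.30 and 7.73 CPM after 6 hr, and 8.67 and 8.72 CPM after 12 hr, against 52.5 to 55.5 CPM for the other genes. No member was at 0 RNA counts in any library, and 1 to 4 members were at 0 RPF counts in a ribo-seq library.

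Over the 6 ribo-seq libraries together, a member had a median of 283.5 RPF counts, and over the 6 RNAseq libraries a median of 1654.5 RNA counts. More than 1000 RPF counts were collected for 31 members, 50 or fewer for 17 and 10 or fewer for 2. These 2 genes, singled out after their values were seen, were Zm00001d040087 at rank 10 and Zm00001d039537 at rank 9. Zm00001d040087 had 1 RPF count over all 6 ribo-seq libraries, in 0 hr replicate 1, against 1096 RNA counts. At 6 and 12 hr it had 0 RPF counts in 4 libraries and 857 RNA counts (33.5 CPM over the 4 RNAseq libraries pooled). With 3 counts over the 4 ribo-seq libraries as the limit that a count of 0 allows, which is 0.122 CPM, its RPF level was at least 274-fold lower than its RNA level. This limit covers counting error only. Zm00001d039537 had 3 RPF counts over the 6 ribo-seq libraries against 1417 RNA counts.

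Summed footprint counts of the poorest members did not grow with library depth. For this description the members were split by their 0 hr score at 0.02, 0.05, 0.1 and 0.2, edges set after the values were seen, into bands of 14, 9, 19, 55 and 103 genes. In the lowest band the summed RPF counts were 616 and 961 at 0 hr, 722 and 709 after 6 hr, and 855 and 480 after 12 hr. The highest of these was 2.00 times the lowest, while ribo-seq library totals differed by 7.40 times and the summed RPF counts of the other genes by 7.45 times. Most counts of the lowest band came from Zm00001d003278, Zm00001d038244, Zm00001d051325 and Zm00001d014365, named for this after their values were seen. They had 280, 82, 166 and 58 in 0 hr replicate 1, and 205, 79, 86 and 69 in 12 hr replicate 2. The sums thus say little about the rest of the band. In the band of 0.2 and over the summed RPF counts were 17519 and 17906 at 0 hr, 8066 and 24153 after 6 hr, and 13563 and 52056 after 12 hr, which differed by 6.45 times. Expressed as CPM, the lowest band had 188 and 165 at 0 hr, 433 and 94.4 after 6 hr, and 280 and 38.9 after 12 hr. The lowest-scoring band thus had its highest RPF CPM in the shallowest ribo-seq library and its lowest in the deepest, an 11.1-fold range, against a 1.74-fold range in the highest band.

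**Figure D4:**
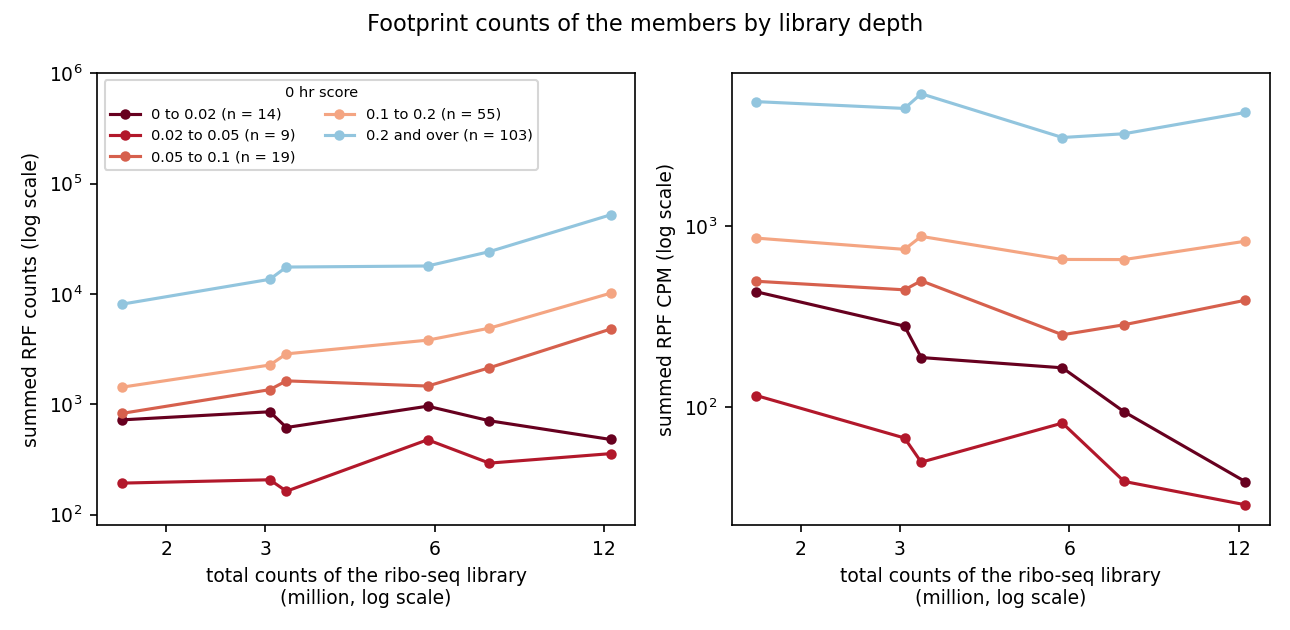
Summed RPF counts (left) and summed RPF CPM (right, both log scale) of the members in 5 bands of 0 hr score, plotted against the total counts of the 6 ribo-seq libraries (log scale), with lines joining the libraries in order of depth. The band of 0 to 0.02 stays between 480 and 961 counts over a 7.40-fold range of depth, while the band of 0.2 and over goes up with depth to 52056 counts.

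Ratios of the poorest members moved with library depth at 6 and 12 hr. In the lowest band the median ratio was 0.00627 and 0.00689 at 0 hr, 0.0165 and 0.00542 after 6 hr, and 0.0128 and 0.00137 after 12 hr. At 0 hr, replicate 1 had the shallower library of both types and the lower median ratio. Replicate 1, which had the shallower ribo-seq library and the deeper RNAseq library at both later times, had the higher ratio for 13 of 14 genes at 6 hr and for 14 of 14 at 12 hr, with median log2 differences of 1.93 and 2.28. Of the other genes, 46.3% had the higher ratio in replicate 1 at 6 hr and 43.1% at 12 hr, with median log2 differences of -0.045 and -0.064. The part of depth in the ratios was not tested. All 14 genes of the lowest band stayed at or below the threshold in each of the 4 later lysates, as did 9 of 9, 18 of 19, 32 of 55 and 34 of 103 genes in the bands above it, in order of score.

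Duplicates differed more in the members than elsewhere. The median absolute log2 difference in ratio between duplicates was 0.417 at 0 hr, 0.704 after 6 hr and 0.427 after 12 hr for members, against 0.299, 0.316 and 0.247 for the other genes. The shallower RPF count of a duplicate pair had a median of 27 at 0 hr, 15 after 6 hr and 26 after 12 hr for members, against 176, 87 and 161 for the other genes. Counting error is thus larger for members.

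The same choice made on later libraries returned a partly different list. At 6 hr, 9102 genes had at least 20 CPM of RNA in both RNAseq libraries, and of the 200 lowest scores among them 109 belonged to members (54.5% of each list). At 12 hr, 8899 genes passed and again 109 of the 200 were members (54.5% of each list). The lists chosen at 12 and 6 hr shared 139 genes, and 90 genes were on all 3 lists. Part of the turnover came from the RNA minimum, which 181 members passed at 6 hr and 182 at 12 hr. The genes chosen at 12 hr had median ratios of 0.147 and 0.153 at 0 hr, 0.123 and 0.129 after 6 hr, and 0.112 and 0.108 after 12 hr.

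Changes from 0 hr were small in the median and differed between replicates in RNA and in the ratio. In replicate 1, the members' median log2 change in ratio was 0.45 at 6 hr and 0.35 at 12 hr relative to 0 hr, while in replicate 2 it was -0.04 and 0.03 at the same times. The corresponding medians of the other genes were -0.08 and -0.05 in replicate 1 and 0.02 and 0.08 in replicate 2. For RNA the members' median log2 change was -0.31 at 6 hr and -0.27 at 12 hr in replicate 1, and 0.11 and 0.36 in replicate 2. For RPFs it was 0.13 and -0.03 in replicate 1, and 0.10 and 0.27 in replicate 2. No label ties replicate numbers across times, and low 0 hr ratios were part of the choice, so these values carry no test.

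Between 12 and 6 hr, no member changed in its ratio of RPF to RNA past the test. With libraries scaled to actin, edgeR's quasi-likelihood test called 0 of 200 members and 0% of 24221 genes, and DESeq2 called 0 members as well. At an unadjusted p under 0.05, edgeR had 26 members (13.0%) against 2.63% of all genes, and DESeq2 had 17 (8.5%) against 0.846%. Of the 26, 2 had a higher ratio at 12 hr. Leaving out 6 hr replicate 1 gave 1 member called, leaving out 6 hr replicate 2 gave 6, leaving out 12 hr replicate 1 gave 5 and leaving out 12 hr replicate 2 gave 0. The members' median log2 change in ratio was -0.19, against -0.13 for all genes tested. With total count scaling both medians were nearer to 0, at -0.01 and 0.04.

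The member with the smallest unadjusted p was Zm00001d036567, singled out for this after its values were seen. Its ratios were 0.265 and 0.216 at 0 hr, 0.235 and 0.186 after 6 hr, and 0.0720 and 0.0685 after 12 hr. All earlier values thus lay above both of those at 12 hr. RPF counts were 13 and 44 after 12 hr, against 24 and 79 after 6 hr. The log2 change in ratio was -1.76 (SE 0.38), with an edgeR p of 0.000136 before adjustment and an adjusted p of 1. Zm00001d003278 had a log2 change in ratio of -1.01 (SE 0.73, edgeR adjusted p = 1), which became 0.09 without 6 hr replicate 1 and 0.76 without 12 hr replicate 2 (adjusted p = 1 each). It was -2.12 without 6 hr replicate 2 (adjusted p = 1.96e-05) and -2.87 without 12 hr replicate 1 (adjusted p = 1.47e-12), and passed with no filter on low counts (adjusted p = 0.0464).

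Few members changed in RNA between 12 and 6 hr. With actin scaling, 3 of 200 members rose and 0 fell in edgeR's test (adjusted p under 0.05), against 0.612% of 23364 genes that rose and 0.0128% that fell. Actin scaling moved the median log2 change of all genes to 0.45, and the members' median was 0.56. With total count scaling 0 members passed, against 0.0599% of all genes, and at an unadjusted p under 0.05 there were 27 members (13.5%) against 4.76% of all genes. The count of members called was 0 when 6 hr replicate 1 was left out, 0 when 6 hr replicate 2 was and 2 when 12 hr replicate 2 was. Leaving out 12 hr replicate 1 gave 123 members called higher, in a fit that called 5904 of all 23789 genes higher. In the main fit, with actin scaling and no replicate left out, the prior degrees of freedom were infinite. Its p-values thus took their spread from all genes together.

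Of these genes, Zm00001d016070 had the higher fitted change of the 2 named here with actin scaling, but not without 6 hr replicate 1, without 12 hr replicate 2 or with a replicate block. Its RNA was 512 and 191 CPM at 0 hr, 171 and 196 CPM after 6 hr, and 137 and 430 CPM after 12 hr. The 12 hr values spanned those at 6 hr, and the high 12 hr value came from replicate 2. The log2 change in RNA was 1.18 (SE 0.30, edgeR adjusted p = 0.0188) with actin scaling and 0.62 (adjusted p = 1) with total count scaling. It was -0.19 without 12 hr replicate 2 and 1.00 to 1.87 without any other single replicate, and DESeq2 did not call it (adjusted p = 0.304). Zm00001d000270 had 755 and 759 CPM of RNA at 0 hr, 871 and 696 CPM after 6 hr, and 1002 and 1256 CPM after 12 hr, so that its 12 hr values lay above its 6 hr values. Its log2 change in RNA was 1.02 (SE 0.26, edgeR adjusted p = 0.0242) with actin scaling and 0.53 (adjusted p = 0.947) with total count scaling. With the 0 hr libraries included it was not called (edgeR adjusted p = 0.639). DESeq2 (adjusted p = 0.0486) and edgeR with a replicate block (adjusted p = 0.0031) called it. The change was 0.61 to 1.34 without any 1 replicate. The call was not kept without 6 hr replicate 1, 6 hr replicate 2 or 12 hr replicate 2. The ratio of RPF to RNA stayed low in both genes, at 0.132 and 0.153 at 12 hr and 0.131 and 0.156 at 6 hr for Zm00001d016070, and at 0.0547 and 0.0810 at 12 hr and 0.0851 and 0.0891 at 6 hr for Zm00001d000270.

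No member passed the test for a change in RPFs between 12 and 6 hr. Enough RPF counts for the test were found for 183 of the 200 members, and edgeR's quasi-likelihood test with actin scaling called 0 of them, as did DESeq2. Over all 20161 genes tested, 0.0248% rose and 0% fell. At an unadjusted p under 0.05, edgeR had 16 members (8.74%) against 6.66% of all genes. With the replicate number as a block edgeR called 19 members, and over all 20161 genes 1313 higher and 47 lower. The members' median log2 change in RPFs was 0.33 against 0.29 for all genes. Without 1 replicate it ranged from 0.18 (12 hr replicate 2 left out, 0.16 for all genes) to 0.42 (6 hr replicate 1 left out, 0.25 for all genes).

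The 7 genes that could be looked up by a complete identifier from the study's text were not members. Of the genes of the unfolded protein response, BIP2, an HSP70 chaperone of the endoplasmic reticulum, stood at rank 7102 of the 8603 scores, PDI-2, a protein disulfide isomerase, at rank 7634, Derlin 1, a protein of ER-associated degradation, at rank 8596, and ERDJ3a, a DnaJ co-chaperone, at rank 6981. Actin stood at rank 4655, alpha tubulin 3 at rank 3451 and PAB2, a poly(A)-binding protein, at rank 2644. The lowest ratios among them at 0 hr were those of PAB2, 0.780 and 0.872, against other-gene medians of 1.06 and 1.02.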

How the data were processed

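Each of the 6 lysates had 1 RNAseq and 1 ribo-seq library. The deposited file holds raw counts per gene that the authors made without normalization. Their methods and the submitters' notes on processing name cutadapt 1.16, FastQC, SAMtools, Bowtie 1.2 and B73 RefGen_v4. Adapters were trimmed, reads were selected by length, noncoding RNA was removed and the rest were mapped to coding sequences. A read with several equally good matches was kept once, so near-identical genes may share counts. PCR duplicates are not said to have been removed, so the true error may exceed counting error. There were 0 sample columns left unused.

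CPM was (count + 0.5) divided by the library total over all rows, times 1000000. The members, lists and tests were chosen with earlier results of these data known. Ratios at 6 and 12 hr were tested in R 4.3.3 with edgeR 4.0.16 (glmQLFit, then glmQLFTest) on the 8 libraries of those times, with total count scaling, the lysate as a block and filterByExpr. Changes between 12 and 6 hr were tested with actin scaling, the scaling of the study's methods, and p-values were adjusted after Benjamini and Hochberg over all genes tested. Standard errors are the size of the log2 value divided by the square root of F. The tests were first tried on simulated data.

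The pairing of libraries by lysate comes from the study's methods. Over 12776 genes, the difference between duplicates in RNA correlated with that in RPFs at 0.415 at 0 hr, 0.0196 at 6 hr and 0.472 at 12 hr. No duplicates agreed within sampling noise, since chi-square divided by its degrees of freedom was 4.72 to 12.0.

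The genes named were the 2 with the lowest scores, the 2 on either side of the threshold, at most 2 called in a direction of change, and genes of the study's text. Others are identified as chosen after their values were seen. The annotation used here matched 0 of these identifiers, so the planned gene lists, root, green tissue and seed markers and sequences were not used. Alternatives were TMM, actin and total count scaling, other filters, DESeq2 1.42.0, fits with and without a replicate block, fits that include the 0 hr libraries, leaving out each replicate, and other forms of the rule.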

Additional observations from a re-analysis of the deposited data

How the results depend on the processing

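With both duplicates of each time kept, members with fewer RPFs than RNA numbered 197 to 200 at 6 hr wherever all 200 were tested. At 12 hr they numbered 194 to 200. A filter of 20 CPM of RNA gave 179 of the 179 tested, with 2189 and 1964 of all 8562 genes lower at 6 and 12 hr. Actin scaling gave 200, and called 8954 and 10708 of all 24221 genes lower, against 5185 and 4968 with total count scaling. DESeq2 gave 197 and 194 members (3271 and 3055 of all genes). Fits with no replicate block gave 197 at each time (4412 and 4140 of all genes). The main edgeR fit, with the lysate as a block and total count scaling, gave all but 1 of the 200 at each time. Leaving out 1 lysate moved the members' median log2 difference between -2.61 and -2.42 at 6 hr and between -2.52 and -2.50 at 12 hr. Some fits without 1 lysate called fewer members. Their counts are not given here, since the lone duplicate is then assumed to vary like the others.

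The members' median ratio over the 4 later lysates was 0.178 (SD 0.0107). Other forms of the rule chose other gene lists, so their medians are not those of the same genes. The median was 0.0875 with an RNA minimum of 10 CPM (88 of 200 were members) and 0.261 with 40 CPM (108 of 200). It was 0.0956 for the 100 lowest scores and 0.263 for the 400 lowest. Choosing on 6 hr libraries gave 0.127 and on 12 hr libraries 0.118 (109 members each). A pseudocount of 5 gave 0.20 (187 members). Totals over Zm00001d identifiers alone, an alternative added after seeing the data, gave 0.165 (191 members). Without 1 replicate the median ranged from 0.095, without 0 hr replicate 2 (80 members), to 0.190, without 0 hr replicate 1 (133 members).

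The counts of changes between 12 and 6 hr were the least stable. For the ratio they were 0, but 2 with no filter and 0 to 6 without 1 lysate. For RNA they were 3, but 0 with TMM, with total count scaling and with the 0 hr libraries included, 36 with a replicate block (453 of all 23364 genes higher), and 0 to 123 without 1 replicate (5904 of all 23789 genes higher in the fit that gave 123). For RPFs they were 0, but 1 with no filter, 19 with a replicate block (1313 of all 20161 genes higher and 47 lower) and 0 to 5 without 1 replicate. No label ties replicate numbers across times. The duplicate differences of 12 and 6 hr correlated at 0.101 for RNA and 0.404 for RPFs, those of 12 and 0 hr at -0.319 and -0.0243, and those of 6 and 0 hr at -0.0971 and 0.277, so the numbers were not taken to pair lysates. Among single genes, the log2 change in ratio of Zm00001d003278 was -1.01 and ranged from -2.87 (12 hr replicate 1 left out) to 0.76 (12 hr replicate 2 left out), with 0.09 when 6 hr replicate 1 was left out. The log2 change in RNA of Zm00001d016070 was 1.18 and ranged from -0.19 (12 hr replicate 2 left out) to 1.87 (12 hr replicate 1 left out). The cause was not tested. Depth limits the precision for the members, with a median of 15 to 27 RPF counts in the shallower duplicate.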

Other observations

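The 174 rows with GRMZM identifiers, which the choice of members did not consider, also had few footprints for their RNA. They took 3.70% to 5.77% of the counts of an RNAseq library. In ribo-seq libraries they took 0.656% and 0.334% of counts at 0 hr, 0.605% and 0.321% after 6 hr, and 0.536% and 0.381% after 12 hr. Their summed ratio of RPF to RNA was 0.130 and 0.0903 at 0 hr, 0.132 and 0.0799 after 6 hr, and 0.109 and 0.0660 after 12 hr. The summed ratio of the 200 members was 0.0840 and 0.0699, 0.0984 and 0.0681, and 0.0878 and 0.0760 at the same times. In both sets the shallower ribo-seq library of each time point had the higher summed ratio.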
